A study of Mus musculus with 6 samples.

Results

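The genes described here are Npas3 and 9 of its relatives among the neuronal bHLH-PAS transcription factors: Npas1, Npas2, Npas4, Sim1, Sim2, Arnt, Arnt2, Hif1a and Epas1. They were taken by name, with earlier results of these data known, and all 10 were found among the 53379 genes of the count table. RNA was sequenced in bulk from the cortex of C57BL/6 mice at postnatal day 0, with 3 libraries labelled Npas3+/- and 3 labelled wild type (WT). Both groups carry no other labelled allele and received no labelled treatment. The labels give neither how the Npas3 allele was disrupted, nor the sex of the pups, nor whether each library came from 1 animal. The p-values therefore describe the variation among these 6 libraries, which may be technical.

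A bHLH-PAS protein binds DNA through its basic helix-loop-helix region and pairs with other proteins through that region and its PAS domains. Most members work as dimers of a regulated subunit, such as Npas3, Npas1, Sim1 or Hif1a, with a general partner, Arnt or its neuronal relative Arnt2. A change in the amount of 1 regulated subunit can therefore be set against the amount of the shared partners and against the other subunits that use them. In the brain, Npas3 is known for roles in neural progenitors, astrocytes and interneurons, Npas1 is its closest relative and marks forebrain GABAergic neurons, and Npas4 is switched on by neuronal activity.

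Dimers of this family recognise DNA sites built around the letters CGTG. The promoter windows of the 3 genes whose levels did not overlap between genotypes are printed to show how much of that shared sequence each carries. They come from RefSeq (GRCm38.p6, the assembly that mm10 names), run from 250 bases before to 50 bases after the RefSeq start of transcription, read 5′ to 3′ on the gene's strand, and have CGTG or its reverse complement in capitals. The windows are chr12:53248182-53248481 on the + strand for Npas3, chr7:16476731-16477030 on the - strand for Npas1 and chr3:95434140-95434439 on the + strand for Arnt.
Npas3: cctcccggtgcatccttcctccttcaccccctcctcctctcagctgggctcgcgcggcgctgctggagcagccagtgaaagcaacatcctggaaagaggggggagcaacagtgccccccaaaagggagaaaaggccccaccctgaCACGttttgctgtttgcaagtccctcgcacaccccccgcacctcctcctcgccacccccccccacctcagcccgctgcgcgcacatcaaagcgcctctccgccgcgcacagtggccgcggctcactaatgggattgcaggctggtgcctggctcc
Npas1: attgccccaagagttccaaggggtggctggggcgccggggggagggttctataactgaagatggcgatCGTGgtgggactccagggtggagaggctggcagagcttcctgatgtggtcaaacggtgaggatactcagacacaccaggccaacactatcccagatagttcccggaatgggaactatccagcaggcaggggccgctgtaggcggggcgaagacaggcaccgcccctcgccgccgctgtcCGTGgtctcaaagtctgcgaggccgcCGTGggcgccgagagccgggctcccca
Arnt: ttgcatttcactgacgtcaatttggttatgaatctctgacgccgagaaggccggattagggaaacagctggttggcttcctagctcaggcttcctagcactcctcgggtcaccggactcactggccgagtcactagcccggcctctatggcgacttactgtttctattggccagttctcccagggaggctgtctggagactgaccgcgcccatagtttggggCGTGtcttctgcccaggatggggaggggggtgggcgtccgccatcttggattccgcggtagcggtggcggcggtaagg

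Npas3 held 1 copy of ACGTG, a core known from hypoxia and Sim response elements, counting both strands, and no GCGTG, the core bound by the dioxin receptor with Arnt. Arnt held 1 GCGTG and no ACGTG, and Npas1 held neither. Of 32851 promoter windows of the same 300 bases in the table, 19.6% held ACGTG and 32.4% held GCGTG, so such matches are common, and they describe letters, not binding. Promoter windows were found for 8 members. Hif1a alone among them held the E-box CACGTG, which contains ACGTG on both strands and was found in 7.15% of all windows. The RefSeq start of Npas3 lies 245 bases before the start of its gene model in GENCODE M21, which gave the gene lengths used here. For Npas1 the RefSeq start lies 948 bases after that of the gene model, so the printed window lies inside the model. For Arnt it lies 2 bases after.

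The libraries held 67378231 to 87811574 counts. Markers of cortical excitatory neurons were abundant, as the tissue label has it: their list of 10 summed to 2659 to 3556 CPM (counts scaled to library size) per library. Of these, the transcription factor genes Neurod6 and Emx1 stood at log2 fold changes of 0.34 and 0.24. Bcl11b, a factor of deep-layer neurons, stood at -0.26 and the glutamate transporter gene Slc17a7 at -0.13. Of the 10, 0 passed the threshold and 2 were at an unadjusted p under 0.05, against 12.1% of all genes tested. In contrast, of 8 hypothalamic and midline markers, the 4 that passed the filter on low counts summed to 3.07 to 8.73 CPM. Of these 4, Nkx2-1 stood at -0.88, Trh at -0.30 and Crh at 0.15. Avp did not pass the filter and was at 0 in all 6 libraries. By principal components, Npas3+/- replicate 3 scored 23.0 on component 1 (28.0% of variance), inside the WT range of 10.8 to 47.7, whereas Npas3+/- replicates 1 and 2 scored -65.9 and -44.1. Radial glia and astrocyte markers and striatal markers differed between libraries in ways given beside the results they touch. No 50-base window of any member's transcripts occurred in a transcript of another member, so a read that covers such a window cannot be exchanged among the 10 members. Transcripts of other genes held 5.74% of the windows of Hif1a, 2.3% of Arnt2, 0.553% of Npas3 and 0.0934% of Sim1. How reads from those windows were counted is not known.

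The first comparison asked how far the labelled loss of 1 Npas3 copy shows in its RNA. Npas3 (ENSMUSG00000021010, mm10 chromosome 12, 53248677 to 54072175, + strand) had 23.4, 28.4 and 25.7 CPM in WT replicates 1 to 3. In Npas3+/- replicates 1 to 3 it had 14.96, 14.1 and 8.61 CPM. All Npas3+/- libraries lay below all WT libraries, and replicate 3 was the lowest. The Npas3+/- mean was 48.6% of the WT mean, with a log2 fold change of -1.04 (SE 0.20). The 95% interval of that fold change ran from -1.52 to -0.56, which is 34.9% to 67.7% of the WT level. It held -1, the log2 value of 1 copy in place of 2, and did not reach 0.

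In edgeR's quasi-likelihood test over all genes the difference did not pass the threshold of 0.05 (adjusted p = 0.27, unadjusted p = 0.00114), although Npas3 ranked 81 by p among 21244 genes tested. DESeq2 placed it past the threshold (log2 fold change -1.04, SE 0.20, adjusted p = 0.000175). Over 14 fits, those with other settings or a library left out and the edgeR fit above, the log2 fold change ran from -1.18 to -0.82, and the interval held -1 in 14 of them and 0 in none. The smallest change, -0.82 (SE 0.12), came without Npas3+/- replicate 3. The coefficient of variation of Npas3 was 27.5% among the Npas3+/- libraries and 9.77% among the WT libraries.

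The counts cover all annotated exons of Npas3 together, so RNA from an altered allele that keeps some exons would be counted with RNA from the intact allele. The antisense gene 1700060O08Rik shares 83 exonic bases with Npas3, 1.38% of its 6007 exonic bases. It was counted 3 times in Npas3+/- replicate 3 and 0 times in the other libraries. A second antisense gene within the locus, 1700030L22Rik, shares no exonic base with it and had 0 counts in all 6. At Npas1 and Npas2 the opposite-strand genes n-R5s151 and Gm20428 share no exonic base with the member and had at most 3 and 1 counts in a library.

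**Figure D1:**
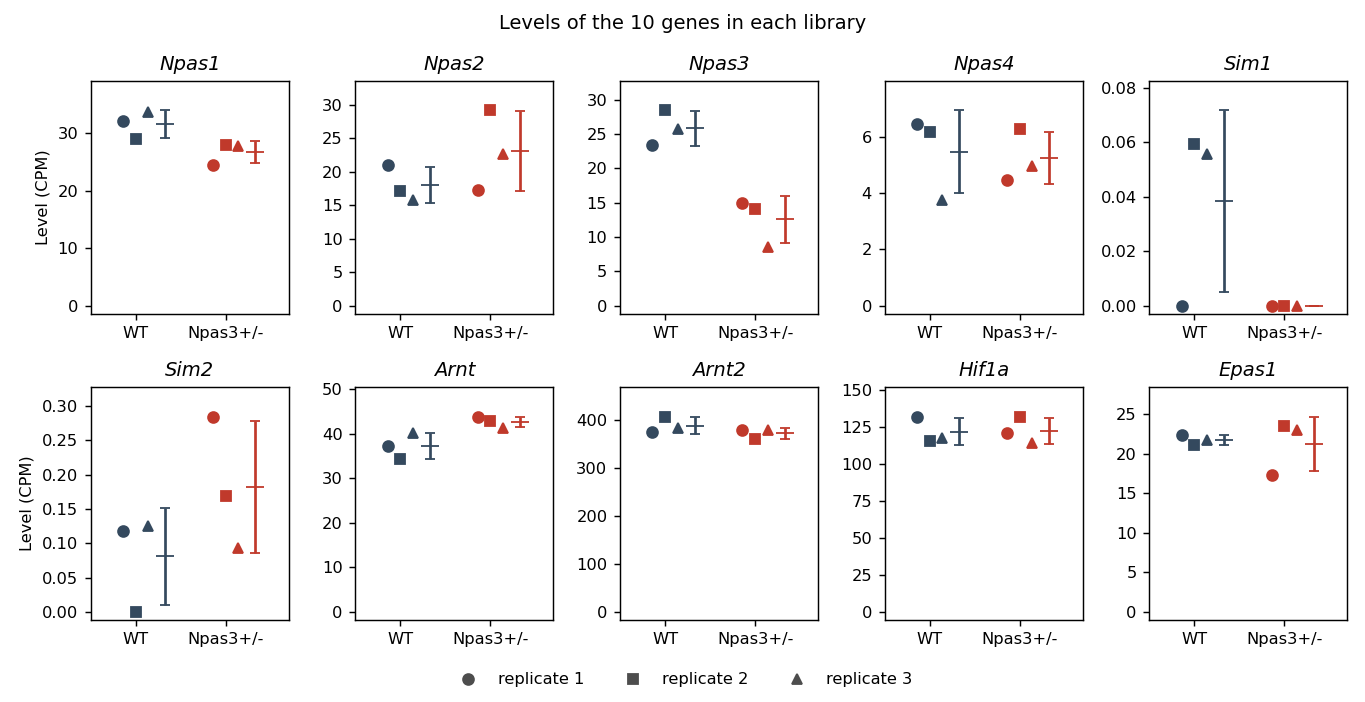
Level in CPM (vertical axes, linear, a separate scale for each gene) of the 10 genes in the 3 WT and 3 Npas3+/- libraries. Points are libraries, with a shape for each replicate number, which was not taken to pair the genotypes. Dashes with bars are the mean ± SD (n = 3). Npas3 stands at 23.4 to 28.4 CPM in WT and 8.61 to 14.96 CPM in Npas3+/-, Npas1 and Arnt are also apart without passing the test over all genes, and Sim1 and Sim2 stay below 0.3 CPM.

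In bulk tissue, fewer cells of a type and less RNA per cell cannot be told apart, and this touches Npas3 first. Of 10 radial glia and astrocyte markers, 10 had negative log2 fold changes, with a median of -0.49, against a median of -0.01 over all genes tested. None passed the adjusted threshold in edgeR, 10 were at an unadjusted p under 0.05, against 12.1% of all genes tested, and groups did not overlap for 6, against 18.9%. The smallest adjusted p, 0.17, was that of Vim, an intermediate filament gene of radial glia. Fabp7, a fatty acid binding protein of radial glia, stood at -0.53 (SE 0.09). The list summed to 977 to 1089 CPM in WT and 641 to 819 CPM in Npas3+/-. Like the other lists, it was chosen with earlier results of these data known. Its counts beside those shares therefore describe these libraries and are not independent support.

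Npas3 was therefore also read against those markers within each library, a measure chosen after the data were seen. As a percentage of the summed list it stood at 2.32, 2.61 and 2.63 in WT and at 2.09, 2.21 and 1.05 in Npas3+/- replicates 1 to 3. The groups did not overlap, and the Npas3+/- mean was 70.7% of the WT mean (exact two-sided permutation test, p = 0.1, the smallest that 3 against 3 libraries allow). Without Npas3+/- replicate 3 it was 85.2% of WT, a log2 ratio of -0.23 in place of -0.50, still with no overlap. Npas3+/- replicate 3 had the highest glial sum of its group, 819 CPM, and the lowest Npas3. Against the summed excitatory neuron markers, Npas3 in Npas3+/- stood at 45.2% of WT, again with no overlap. Against the summed interneuron and ganglionic eminence markers it stood at 60.8% of WT, also with no overlap. Over the 11 such ratios of members to marker lists, the adjusted exact p of each of these Npas3 ratios was 0.22. How far cell makeup takes part in the difference was not tested beyond these ratios.

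The second comparison set the relatives of Npas3 beside it, since a paralog or partner could change when 1 copy is missing. Of the 10 genes, 8 passed the filter on low counts and were tested, and 0 passed in edgeR, where 0.0377% of all genes tested did and 0.00941% did so with a lower level in Npas3+/-. At an unadjusted p under 0.05, which 12.1% of all genes reached, there were 3, Npas3, Npas1 and Arnt. The same 3 had groups that did not overlap, which was so for 18.9% of all genes tested, and 2 of them were lower in Npas3+/-, as were 9.18% of all genes tested. DESeq2 called 1, Npas3, where it called 3.4% of the genes it gave an adjusted p.

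Npas1, the closest paralog (ENSMUSG00000001988, chromosome 7, 16455721 to 16477728, - strand), had 32.2, 29.0 and 33.7 CPM in the WT libraries against 24.6, 28.0 and 27.8 CPM in the Npas3+/- libraries. Each Npas3+/- value was below each WT value, though replicate 2 of each genotype lay close together. The log2 fold change was -0.24 (SE 0.09, 95% interval -0.46 to -0.02, edgeR adjusted p = 0.373). The interval corresponds to 72.8% to 98.4% of the WT level. It holds no increase of Npas1, but with a library left out the interval reached 0 in 3 of 6 fits, those without Npas3+/- replicate 1, WT replicate 1 and WT replicate 3, where the log2 fold change was -0.18, -0.23 and -0.19.

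Npas1 is expressed in GABAergic neurons, whose markers were read in the same libraries. Of 10 interneuron and ganglionic eminence markers, 9 had negative log2 fold changes, with a median of -0.31. In edgeR 0 passed the threshold and 5 were at an unadjusted p under 0.05, against 12.1% of all genes tested. Groups did not overlap for 1, Gad2, against 18.9% of all genes tested. Among the markers were Gad2, an enzyme of GABA synthesis (-0.82, SE 0.21, adjusted p = 0.276 in edgeR), and the somatostatin gene Sst (-0.76, SE 0.27). The neuropeptide gene Npy stood at 0.28 (SE 0.11). The list summed to 586 to 725 CPM in WT and 484 to 614 CPM in Npas3+/-, ranges that overlap. Within each genotype the libraries ranked in the same order by this sum as by the summed striatal markers given below. How far striatal tissue adds to this list was not tested. As a percentage of the interneuron and eminence sum, Npas1 stood at 5.20, 4.01 and 5.75 in WT and at 5.08, 5.65 and 4.54 in Npas3+/-. On this scale the groups overlapped, and the Npas3+/- mean was 102% of the WT mean (exact two-sided permutation test, p = 1). Against the excitatory neuron markers Npas1 stood at 1.10%, 1.09% and 1.16% in WT and 0.873%, 0.786% and 1.03% in Npas3+/-, without overlap. There the Npas3+/- mean was 80.0% of the WT mean (exact two-sided permutation test, p = 0.1, adjusted 0.22), so the comparison of Npas1 depends on the list it is set against.

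Npas2, a paralog of Clock that pairs with Arntl in the circadian clock, (ENSMUSG00000026077, chromosome 1, 39193731 to 39363236, + strand) had WT values of 20.9, 17.2 and 15.7 CPM and Npas3+/- values of 17.3, 29.1 and 22.7 CPM. The groups overlapped, because Npas3+/- replicate 1 was as low as the WT libraries while replicate 2 was the highest of all. The log2 fold change was 0.36 (SE 0.20, 95% interval -0.10 to 0.82, edgeR adjusted p = 0.519). It was 0.16 without Npas3+/- replicate 2 and 0.53 without replicate 1. The interval, 93.3% to 176% of WT, leaves room for a sizeable increase that these libraries cannot resolve.

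Npas4, the activity-dependent member (ENSMUSG00000045903, chromosome 19, 4984355 to 4990316, - strand), was low and variable, at 6.44, 6.16 and 3.76 CPM for WT against 4.47, 6.25 and 4.97 CPM for Npas3+/-. The groups overlapped widely, with a log2 fold change of -0.06 (SE 0.24, 95% interval -0.62 to 0.50, edgeR adjusted p = 0.952). Of 11 activity-linked genes read beside it, 7 had negative log2 fold changes, with a median of -0.11, and 0 passed the threshold. Those with the smallest p were Bdnf, a neurotrophin (-1.28, SE 0.33, edgeR adjusted p = 0.276), and the immediate early gene Fosb (-1.54, SE 0.62, adjusted p = 0.386). Both had groups that did not overlap. That is 2 of 11 genes, a share close to the 18.9% of all genes tested. In the other direction stood Nr4a1 at 0.15 and Junb at 0.11, both immediate early transcription factors. Bdnf had 492 counts over the WT libraries and 217 over the Npas3+/- libraries, and Fosb 126 and 49. Of the 126, WT replicate 1 held 68.

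Sim1, which specifies neurons of the hypothalamus (ENSMUSG00000019913, chromosome 10), and its paralog Sim2 (ENSMUSG00000062713, chromosome 16) were near the limit of detection. No Sim1 read was counted in any Npas3+/- library, which allows up to 3 counts in each, and WT replicates 1 to 3 held 0, 5 and 4. For Sim2 the counts were 8, 0 and 9 among WT libraries, while Npas3+/- libraries held 25, 13 and 7. The Sim2 values overlapped, and no fold change is given for either gene. Neither passed the filter, so neither entered the test over all genes.

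Arnt, the widely expressed partner (ENSMUSG00000015522, chromosome 3, 95434388 to 95497240, + strand), measured 37.4, 34.4 and 40.3 CPM across WT libraries and 43.7, 42.9 and 41.4 CPM across Npas3+/- libraries. All Npas3+/- libraries lay above all WT libraries, the nearest being WT replicate 3 and Npas3+/- replicate 3. The log2 fold change was 0.19 (SE 0.08, 95% interval 0.01 to 0.38, edgeR adjusted p = 0.399), whose upper end is 130% of the WT level. It kept its sign with each library left out, between 0.14 and 0.25, and the interval reached 0 in 5 of these 6 fits, without WT replicate 3 being the exception.

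Arnt2, the partner enriched in neurons, was the most abundant member (ENSMUSG00000015709, chromosome 7, 84246278 to 84410176, - strand). Its WT libraries held 374, 408 and 383 CPM and its Npas3+/- libraries 379, 359.9 and 380.0 CPM, with coefficients of variation of 4.43% and 3.01%. The groups overlapped, with a log2 fold change of -0.06 (SE 0.05, edgeR adjusted p = 0.693). The 95% interval, -0.18 to 0.06, corresponds to 88.5% to 104% of WT. An antisense gene, Gm30873, shares 214 exonic bases with Arnt2, 2.78% of its exons, and had 47 to 76 counts per library against 25320 to 34216 for Arnt2.

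Hif1a and Epas1 encode the oxygen-regulated subunits, whose proteins are destroyed when oxygen is plentiful, so their RNA is only part of their control. For Hif1a (ENSMUSG00000021109) the WT libraries gave 132, 116 and 118 CPM and the Npas3+/- libraries 121, 132 and 115 CPM, with the groups interleaved. Its log2 fold change was 0.01 (SE 0.08, 95% interval -0.17 to 0.19, edgeR adjusted p = 0.98). Hif1a lies on chromosome 12 as Npas3 does, at 73901375 to 73947530. It shares 330 exonic bases with the antisense gene Gm15283, which had 51 to 117 counts per library against 8444 to 10614 for Hif1a. On the same strand it shares 148 exonic bases with Gm49321, which had 18 counts in Npas3+/- replicate 2 and 0 elsewhere.

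Epas1, the subunit known from endothelium (ENSMUSG00000024140, chromosome 17, 86753700 to 86833410, + strand), ranged from 21.2 to 22.4 CPM over the WT libraries and had 17.3, 23.5 and 23.0 CPM in Npas3+/- replicates 1 to 3. Npas3+/- replicate 1 was lowest and the other Npas3+/- libraries were above all WT libraries, so the groups overlapped. The log2 fold change was -0.03 (SE 0.13, 95% interval -0.33 to 0.26, edgeR adjusted p = 0.949). Of 10 endothelial and mural markers, 7 had negative log2 fold changes with a median of -0.04 and 0 passed. The list summed to 226 to 243 CPM in WT and 221 to 236 CPM in Npas3+/-. Tek, an endothelial receptor kinase, stood at -0.31 (SE 0.12) and Pdgfrb, a pericyte receptor, at -0.25 (SE 0.12), against 0.21 for Abcc9, a pericyte channel subunit, and 0.13 for Kdr, the endothelial VEGF receptor.

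**Figure D2:**
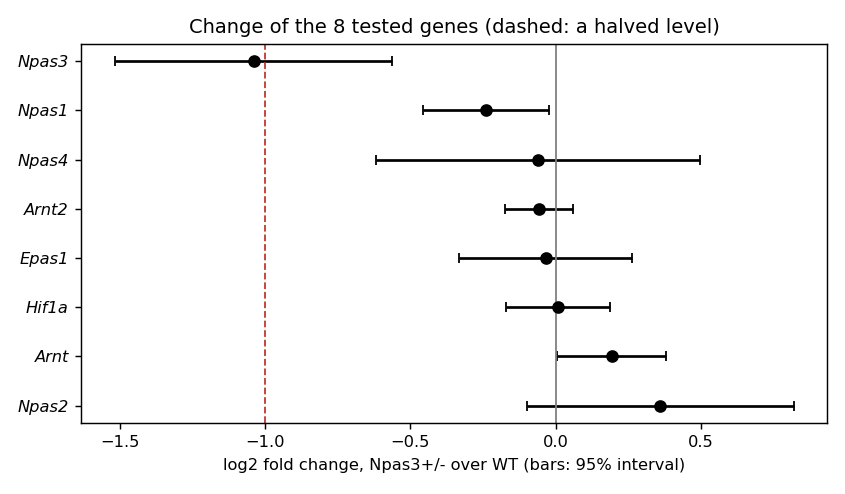
Log2 fold change of Npas3+/- over WT (horizontal axis) for the 8 genes tested, with 95% intervals from edgeR as bars, 0 as a solid line and -1, the value of 1 copy in place of 2, as a dashed line. The interval of Npas3, -1.52 to -0.56, holds the dashed line, those of Npas1 and Arnt lie just to either side of 0, and the other 5 hold 0.

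Levels were compared between genes only as CPM per kilobase of annotated exon. In WT the order was Arnt2 (50.5 ± 2.24, SD, n = 3), Hif1a (20.7 ± 1.53), Npas1 (10.52 ± 0.788), Arnt (4.67 ± 0.367), Npas3 (4.30 ± 0.420), Epas1 (3.89 ± 0.108), Npas2 (3.75 ± 0.561) and Npas4 (1.32 ± 0.356). Arnt, Npas3, Epas1 and Npas2 overlapped with their neighbours in that order, so their ranks are not resolved. In Npas3+/- cortex Npas3 stood at 2.09 ± 0.575, below Npas2 (4.81 ± 1.24) and Epas1 (3.802 ± 0.616) without overlap with Epas1, and its range of 1.43 to 2.49 overlapped that of Npas4, 1.08 to 1.51. Divided by the longest annotated transcript instead of all exons, Arnt stood at 8.64 per kilobase in WT against 4.40 for Npas3, so the place of Arnt beside Npas3 depends on which exons are used.

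**Figure D3:**
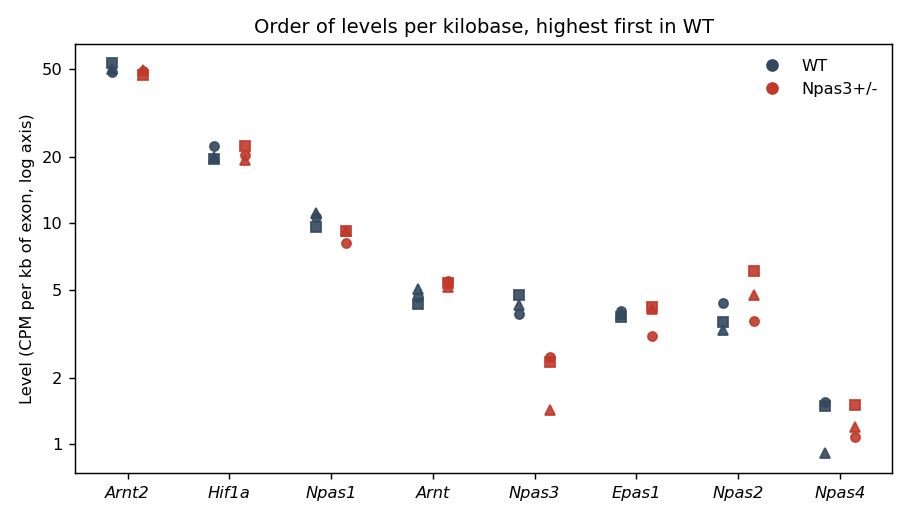
Level in CPM per kilobase of exon (vertical axis, log scale) of the 8 tested genes in order of their WT mean, with each library as a point. Npas3 shares the range of Arnt, Epas1 and Npas2 in WT, at 3.89 to 4.73, and lies at 1.43 to 2.49 in Npas3+/-, below Epas1.

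Dosage was then read as the level of Npas3 per kilobase against its shared partners in the same library. Npas3 equalled 7.30%, 8.26% and 7.80% of Arnt plus Arnt2 in WT and 4.55%, 4.51% and 2.63% in Npas3+/- replicates 1 to 3. No value of one genotype lay within the range of the other, and the Npas3+/- mean, 3.90% ± 1.10, was 50.02% of the WT mean, 7.79% ± 0.481 (SD, n = 3). The exact two-sided permutation test gave p = 0.1, the smallest possible here, and 0.217 adjusted over 13 ratios among members. With each library left out in turn the Npas3+/- mean was 45.8% to 58.2% of WT, the highest without Npas3+/- replicate 3.

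For the other subunits the ratios to the partners overlapped between genotypes. The 7 members other than Npas3, Arnt and Arnt2 summed to 73.0% ± 7.22 of the partners in WT and 73.7% ± 8.68 in Npas3+/-, with overlapping groups. Hif1a alone gave 37.5% ± 4.03 and 38.6% ± 3.82. Npas3 plus Npas1, the paralog pair, equalled 27.4%, 25.1% and 28.2% in WT and 19.5%, 22.3% and 19.6% in Npas3+/-, with no overlap, 76.1% of WT on average. Npas1 stood at 247% ± 37.8 of Npas3 in WT and 456% ± 167 in Npas3+/-, and the highest value, 646%, was in replicate 3, where Npas3 was lowest. The pair sum and the ratio of Npas1 to Npas3 both contain Npas3. Its lower level therefore enters each, and neither is separate evidence on Npas1. Arnt2 equalled 1089% ± 128 of Arnt in WT and 910% ± 42.1 in Npas3+/-, also with no overlap between the groups. Each exact p for a ratio without overlap was 0.1 before adjustment. RNA ratios say nothing of protein, and Npas2 is known to pair mainly with Arntl and not with these partners.

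**Figure D4:**
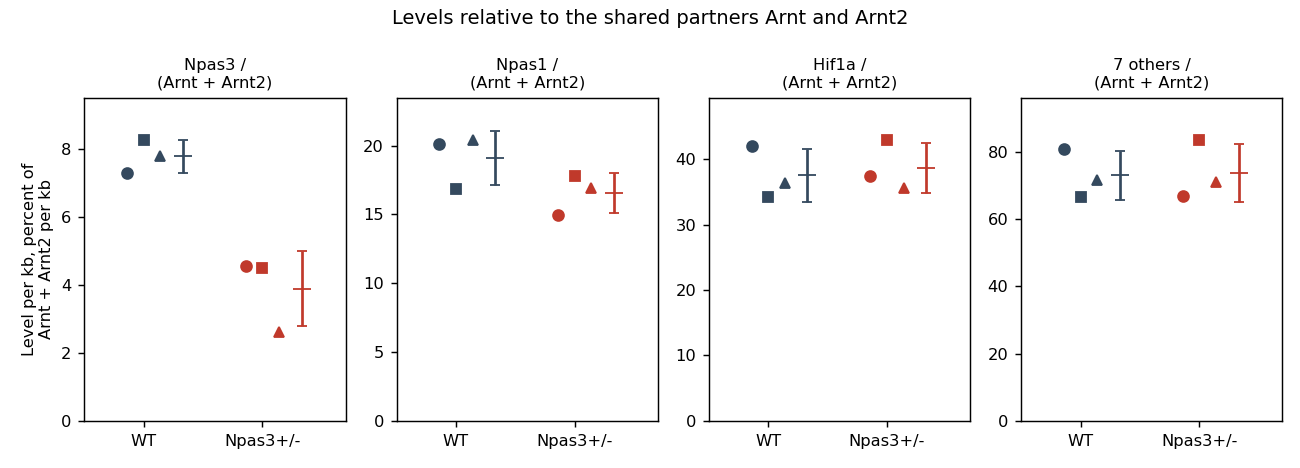
Level per kilobase as a percentage of Arnt plus Arnt2 in the same library (vertical axes, linear from 0) for Npas3, Npas1, Hif1a and the sum of the 7 members other than Npas3, Arnt and Arnt2. Points are libraries, and dashes with bars are the mean ± SD (n = 3). Npas3 goes from 7.30% to 8.26% in WT to 2.63% to 4.55% in Npas3+/-, and the other 3 panels overlap between genotypes.

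Beyond the 10 genes, 12 further bHLH-PAS or PAS genes were read as a list: the dioxin receptor Ahr and its repressor Ahrr, the clock genes Arntl, Arntl2, Clock, Per1, Per2 and Per3, the oxygen-linked Hif3a, and the nuclear receptor coactivators Ncoa1, Ncoa2 and Ncoa3. All 12 were tested, 8 had positive and 4 negative log2 fold changes, the median was 0.14, and 0 passed in edgeR. There were 2 at an unadjusted p under 0.05, against 12.1% of all genes tested. Groups did not overlap for 4 of 12, where 18.9% of all genes tested did not.

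Ncoa3 had 41.7, 38.5 and 41.2 CPM among WT libraries, below the Npas3+/- values of 52.8, 46.9 and 50.6 CPM (log2 fold change of 0.31, SE 0.07, edgeR adjusted p = 0.276). Its paralog Ncoa1 stood on the other side, with 180 to 198 CPM over WT libraries and 158 to 169 CPM over Npas3+/- libraries (-0.19, SE 0.06, adjusted p = 0.284). Neither pair of groups overlapped. Ncoa2 was at -0.07 and Per1 at 0.16, the other genes of the list whose groups did not overlap. The remaining log2 fold changes were 0.22 for Per2, 0.21 for Arntl2, 0.16 for Arntl, 0.15 for Per3, 0.12 for Ahrr, 0.02 for Clock, -0.02 for Hif3a and -0.03 for Ahr. Arntl, the partner of both Clock and Npas2, averaged 27.1 ± 1.63 CPM (SD, n = 3) for WT and 30.3 ± 3.05 CPM for Npas3+/-. Clock varied more between libraries, at 65.3 ± 11.0 and 66.4 ± 14.2 CPM.

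**Figure D5:**
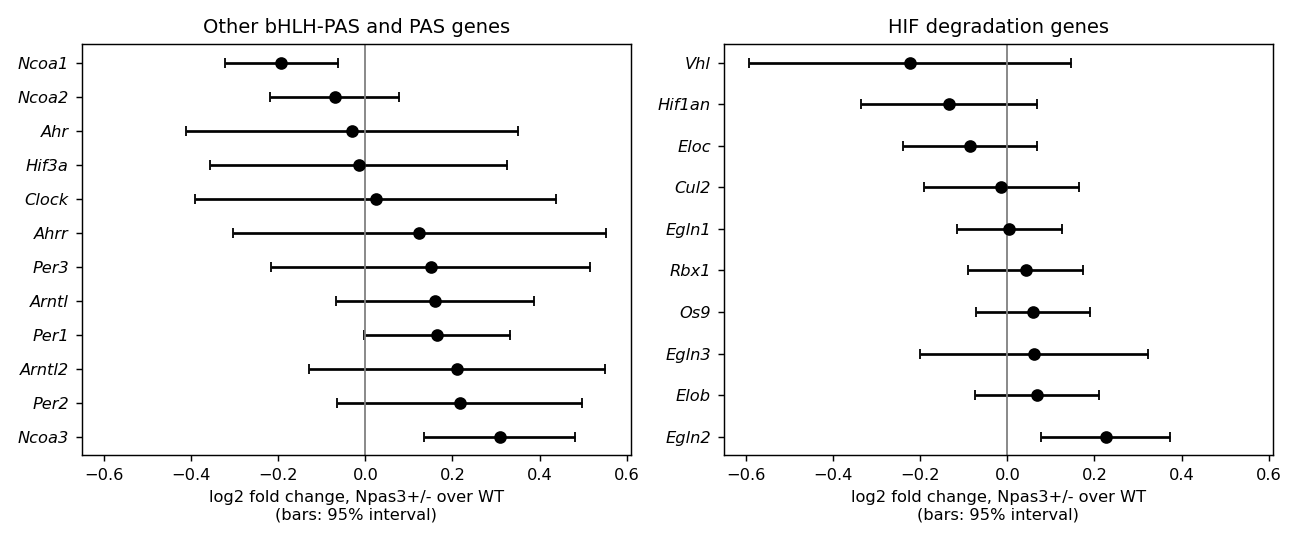
Log2 fold change of Npas3+/- over WT (horizontal axis) with 95% intervals from edgeR for 12 further bHLH-PAS and PAS genes (left) and 10 genes that degrade or restrain HIF subunits (right). On the left the intervals of Ncoa3 (0.31) and Ncoa1 (-0.19) leave out 0 on opposite sides, and on the right that of Egln2 (0.23) does; none of these genes passed the test over all genes.

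HIF protein levels are set by hydroxylases and a ubiquitin ligase, whose RNAs were read next. Of 10 genes that hydroxylate, bind or ubiquitinate HIF subunits, 6 had positive and 4 negative log2 fold changes, the median was 0.02, and 0 passed. Egln2, a HIF prolyl hydroxylase, ran from 62.9 to 67.6 CPM over WT libraries and from 73.6 to 79.8 CPM over Npas3+/- libraries (0.23, SE 0.06, edgeR adjusted p = 0.276). It was the 1 gene of 10 without overlap, against 18.9% of all genes tested, and the 1 gene of 10 at an unadjusted p under 0.05, against 12.1%. Egln1, the main oxygen sensor among these hydroxylases, was at 90.5 ± 1.28 and 90.8 ± 1.92 CPM. Elob, an elongin of the ubiquitin ligase, was at 0.07 and the asparagine hydroxylase Hif1an at -0.13. Vhl, the substrate receptor of the ligase, was at -0.22 (SE 0.16), with Npas3+/- replicate 3 at 50.3 CPM and the other 5 libraries at 74.7 to 82.4 CPM.

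Of 16 known HIF target genes, 15 were tested, with 8 positive and 7 negative log2 fold changes. The median was 0.02, and 0 passed. At an unadjusted p under 0.05 there were 2, against 12.1% of all genes tested. Vegfa, the vascular growth factor, averaged 54.1 ± 1.41 CPM for WT and 60.7 ± 3.11 CPM for Npas3+/- (0.17, SE 0.07, edgeR adjusted p = 0.379). Bnip3, a mitophagy receptor, was at 0.15 (SE 0.09). In the other direction stood P4ha2, a collagen prolyl hydroxylase, at -0.47 (SE 0.17, adjusted p = 0.361), and the glycolytic gene Pgk1 at -0.08. Groups did not overlap for 3 of the 15, Vegfa, Bnip3 and the glucose transporter Slc2a1, against 18.9% of all genes tested.

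Striatal tissue can bring in other sources of these RNAs, and its markers differed between libraries. Of 10 striatal markers, 9 had negative log2 fold changes, with a median of -1.63. In edgeR 0 passed the threshold and 4 were at an unadjusted p under 0.05, against 12.1% of all genes tested. Groups without overlap numbered 0 of 10, against 18.9% of all genes tested. The 10 markers summed to 200.3, 249 and 81.5 CPM in WT and 75.8, 89.6 and 128 CPM in Npas3+/- replicates 1 to 3. The marker with the smallest p was Tac1, the substance P gene (-2.997, SE 0.94), while the dopamine receptor gene Drd1 was at 0.02. As a percentage of the striatal sum, Npas1 stood at 16.1, 11.7 and 41.3 in the WT libraries and at 32.4, 31.2 and 21.8 in Npas3+/- replicates 1 to 3. These groups overlapped, and the Npas3+/- mean was 124% of the WT mean (exact two-sided permutation test, p = 0.7). No other member was set against the striatal markers.

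Finally, the genes whose levels followed Npas3 most closely over the 6 libraries were sought among 10413 tested genes with a mean of at least 10 CPM. The measure was the root mean square difference between the deviations of log2 CPM from each gene's own mean. The nearest was the ribosomal protein pseudogene Rpl30-ps9, at 0.095, whose counts are uncertain, since pseudogenes can share reads with their parent gene and how such reads were counted is not known. Next were Cflar, an inhibitor of caspase activation, at 0.28, and the F-box gene Fbxo33, at 0.30. Both were also lowest in Npas3+/- replicate 3, Cflar at 5.77 CPM and Fbxo33 at 8.87 CPM. The likeness over these 6 libraries is a description.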

How the data were processed

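RNA from cortex was measured in 3 Npas3+/- and 3 WT libraries, grouped by the genotype in the labels. The abbreviation NP in the table's columns was taken as Npas3+/-, the only genotype besides WT. The authors deposited raw read counts per gene. The submitters' processing notes name Trimmomatic 0.3.8, HISAT2 2.1.0, featureCounts and the mm10 build. Annotation release, strandedness and handling of multimapping reads are not given in the sources used here. Gene identifiers were matched without version to GENCODE M21, which gave names, positions and exon lengths for 53274 of 53379 genes.

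The counts were analysed with edgeR 4.0.16 in R 4.3.3. filterByExpr kept 21244 genes, TMM scaled the libraries, and glmQLFit with genotype as its only term was tested with glmQLFTest. Adjusted p is Benjamini-Hochberg over these genes, called under 0.05. Each SE is the log2 fold change over the root of its F statistic, and 95% intervals use the t distribution on the moderated degrees of freedom. CPM values carry the TMM scaling, and log2 CPM a prior count of 2. A level per kilobase divides CPM by the union of annotated exons. Ratios within a library were tested with exact two-sided permutation tests, which cannot go below 0.1 with 3 against 3. Of these steps, the edgeR fit alone was tested on simulated counts with known changes. Counting error alone is small for the tested members (270 or more counts in each library).

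Alternatives were DESeq2 1.42.0, voom in limma 3.58.1, scaling by RLE or upper quartile, other filters, the replicate number as a block, a threshold of 0.1 and each library left out. Ratios to marker lists were added after the data were seen. The members and gene lists were chosen with earlier results of these data known. Genes named are the members, the 12 further PAS genes, in each other list the 2 genes with the smallest p in each direction, opposite-strand genes at a member, and the 3 genes most like Npas3. Slc2a1, Egln1, Gm49321 and Avp were named outside that rule, after their values were seen. A striatal marker that the rule would name is not reported here.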

Additional observations from a re-analysis of the deposited data

How the results depend on the processing

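The count of members past the threshold was 0 in edgeR and 1 with DESeq2, in which Npas3 passed (log2 fold change -1.04, adjusted p = 0.000175), and 0 in every other setting run, including each library left out. Npas3 kept its direction throughout, from -1.18 to -0.82 with a library left out (adjusted p 0.141 to 0.601). The value moved most when Npas3 was set against summed radial glia and astrocyte markers, a choice made after seeing the data: -0.50, and -0.68 to -0.23 with a library left out. Against excitatory neuron markers it was -1.15. All genes past the threshold numbered 8 in edgeR, 511 with DESeq2 and 3 with the replicate block, and 7 to 16 with a library left out, 16 without WT replicate 1. Same-numbered libraries did not deviate together (correlations 0.04, -0.03 and -0.09). Such correlations cannot settle whether the design paired them, and the numbers were not taken as pairs in the edgeR fit above. With the replicate block Npas3 stood at -1.07 (edgeR adjusted p = 0.449). Of 91 values of the other 7 tested members, 82 kept their direction and 0 passed. With a library left out, Hif1a ran from -0.049 to 0.071, Npas4 from -0.26 to 0.078 and Epas1 from -0.11 to 0.10. The 9 values that turned were all near 0. Hif1a turned with upper-quartile scaling (-0.0052) and with the filter of 1 CPM (-0.00034). It also turned without Npas3+/- replicate 2 (-0.049), WT replicate 2 (-0.028) or WT replicate 3 (-0.013). Npas4 turned without Npas3+/- replicate 1 (0.043), WT replicate 1 (0.078) or WT replicate 2 (0.036). Epas1 turned without Npas3+/- replicate 1 (0.10). The cause was not tested. Npas1 ran from -0.30 to -0.18 and Arnt from 0.14 to 0.25 with a library left out. The ratio of Npas3 to Arnt plus Arnt2 was 45.8% to 58.2% of WT with a library left out. Sim1 and Sim2 held too few counts to pass the filter of the edgeR fit above.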
